A study of Homo sapiens with 12 samples.

Results

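The knockdown of EZH2 by small interfering RNA (siRNA) was examined in cells of UM-UC-3, a long-established bladder cancer line of human origin. Of the 12 single-colour Illumina bead arrays of the study, 6 were used for this comparison. They are the 3 titled EZH2 siRNA, from cells transfected with an siRNA against EZH2, and the 3 titled control siRNA, from cells given a control siRNA in its place. Each siRNA was transfected at 50 nM and the cells were taken after 72 h. The other 6 arrays came from the same cells given a miR-101 precursor or a control microRNA precursor at the same dose and time. They entered the estimate of the spread, and the control precursor arrays also served as a second control. The label of the control gives no sequence or target, 1 siRNA stands for EZH2, and the cells are of 1 line. The labels speak of triplicates and say nothing of separate cultures or days, so the p-values rest on array-to-array spread, part of which may be technical.

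EZH2 is the catalytic subunit of Polycomb repressive complex 2 (PRC2), a histone methyltransferase that places the trimethyl mark on a lysine of histone H3 that goes with silent genes. The complex also needs the subunits SUZ12 and EED, and Polycomb repressive complex 1 (PRC1) binds the mark and adds ubiquitin to histone H2A. EZH2 is often abundant in dividing and cancerous cells. An siRNA directs the RNA interference machinery to a messenger RNA and lowers its level, and cells can also sense double-stranded RNA as if it were viral.

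On the EZH2 siRNA arrays 15653 to 16204 of 46713 probes were detected, against 15718 to 16377 on the control siRNA arrays, where detected means a detection p-value under 0.05. Mean signal was 367 to 497 and 386 to 449 intensity units. Correlations of log2 signal were 0.992 to 0.997 within the siRNA groups and 0.990 to 0.994 between them. Both siRNA groups lay on 1 chip, EZH2 siRNA at positions 4 to 6 and control siRNA at positions 1 to 3, and an effect of chip position cannot be told apart from that of the siRNA. The precursor arrays lay on the other chip, so the comparison with the control precursor crosses chips. Of 17 urothelial markers 6 were detected on 3 or more of the 6 siRNA arrays, namely UPK1B, UPK3B, KRT8, KRT18, PPARG and FOXA1. With EZH2 siRNA and control siRNA, UPK1B (6.89 and 6.87) and UPK3B (6.88 and 6.90) lay near the array background. The lowest detected normalized log2 signal on these arrays was 6.81. The uroplakins UPK1A, UPK2 and UPK3A, the keratins KRT5 and KRT20, and the factors GATA3 and TP63 were among the markers undetected on all 6. As for cells of other kinds, 2 of 9 leukocyte, 2 of 6 endothelial, 1 of 6 fibroblast, 4 of 6 neuronal and 2 of 5 erythroid genes were detected. CD68, a lysosomal protein of macrophages that many cell lines also make, was the only marker past the test's threshold described next (-0.56 on the log2 scale). PTPRC, the pan-leukocyte marker, differed by 0.01. PTPRC, at 6.85 with EZH2 siRNA and 6.84 with control siRNA, and several other detected markers lay near the array background.

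EZH2 messenger RNA was lower on every EZH2 siRNA array. Its normalized log2 intensity was 7.36, 7.51 and 7.35 with EZH2 siRNA and 8.57, 8.53 and 8.76 with control siRNA. The groups did not overlap. The difference of -1.22 (SE 0.125, adjusted p 0.000432 from limma) left 43.0% of the control level, with a 95% interval of 35.4% to 52.3%. Here and below, a gene is past the threshold where its Benjamini-Hochberg adjusted p over all genes tested is under 0.05 in a linear model of the 12 arrays, as it was for 1419 of 13528 genes (10.5%). A further EZH2 probe gave -1.22, the control precursor in place of the control siRNA gave -1.27, and the 15 alternative settings tried gave -1.34 to -1.07. In a bulk sample fewer cells with a transcript and less of it per cell cannot be told apart.

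No other PRC2 gene was past the threshold in the main model. Of 12 PRC2 genes tested, 1 was lower and 0 were higher (8.33%), and the list median was 0.01 (-0.03 with each array scaled to a common median) beside 0.00 for all 13528 genes. Among the alternative settings the list, EZH2 included, gave 5 calls with array weights and 2 with the authors' normalized table. Leaving out 1 array at a time gave 1 to 3. The core subunits SUZ12 (-0.19) and EED (0.10), the paralogue EZH1 (-0.02) and the accessory subunits MTF2 (0.49), AEBP2 (-0.44) and JARID2 (0.26) were not past it. The limma adjusted p was 0.219 for SUZ12, 0.0671 for EED, 0.562 for EZH1, 0.0634 for MTF2, 0.072 for AEBP2 and 0.292 for JARID2.

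PRC1 genes moved both ways. Of 21 tested, 2 rose and 2 fell. CBX6, a chromodomain reader of the complex, was at 9.45, 9.41 and 9.57 with EZH2 siRNA and 8.45, 8.75 and 8.76 with control siRNA, without overlap. That is a rise of 0.82, and RYBP, a subunit of the variant complexes, rose by 0.43. Set against the control precursor instead, the same EZH2 siRNA arrays were lower in both, at -0.99 for CBX6 and -0.31 for RYBP. CBX2 (-0.38) and PHC1 (-0.29) fell, each with its call lost in 6 of the 15 alternatives. With median scaling in place of quantile normalization, no PRC1 gene was past the threshold. Of 29 other chromatin modifiers 3 rose and 2 fell (17.2%). The acetyltransferase CREBBP (0.34) and the remodeller subunit ARID1A (0.37) were higher, the deacetylases HDAC3 (-0.46) and HDAC9 (-0.28) were lower, and none of the list was past the threshold with median scaling. A further, dimmer HDAC9 probe gave -0.06. HOX genes, classic Polycomb targets, gave 1 rise (HOXD8, 0.09) among 22 (4.55%), a call lost in 8 of the 15 alternatives, median scaling among them.

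Genes that the literature reports as repressed by EZH2 did not move one way. Of 36 such genes 25 were tested, 3 rose, 4 fell and 18 were not past the threshold, with a median of -0.00. The share past it was 28%, beside 10.5% of all genes. With median scaling 0 rose and 2 fell (median -0.02), the rises named next being lost. CDKN1A, the cyclin-dependent kinase inhibitor p21, was at 10.36, 10.28 and 10.34 with EZH2 siRNA and 9.89, 9.80 and 9.80 with control siRNA. The groups did not overlap, and the rise was 0.50. KLF2, a Krüppel-like factor, rose by 0.39 and TIMP2, an inhibitor of matrix metalloproteinases, by 0.37. IGFBP3, a binding protein of insulin-like growth factors, fell by 0.46 on the log2 scale and the WNT antagonist SFRP1 by 0.42. Against the control precursor, TIMP2 (0.69) and IGFBP3 (-0.74) were past the threshold in the same direction, CDKN1A (-0.57) and SFRP1 (0.42) in the opposite one, and KLF2 (-0.14) was not past it. CDH1, the E-cadherin gene, did not pass the detection filter, and DAB2IP (0.05), RUNX3 (0.01) and CDKN2A (-0.01), whose levels were near the array background, were not past the threshold.

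Across the genome the response to EZH2 siRNA was broad in number and small in size. Of 13528 genes tested, 1419 (10.5%) were past the threshold, 791 higher (5.85%) and 628 lower (4.64%). The median absolute log2 change of these was 0.40, and 1086 of them (76.5%) changed less than 1.5-fold. At least 2-fold changes were found for 65 genes (0.48%), of which 20 were higher and 45 lower. EZH2 itself was the 25th largest fall. No overlap between the 3 and 3 arrays was seen for 4407 genes (32.6%) and an unadjusted p under 0.05 for 3312 (24.5%). Of the 1419 genes past the threshold 1417 had no overlap, so its mention for a named gene adds little to the call. An exact permutation test of 3 against 3 arrays cannot go below p = 0.1. Removing EZH2 siRNA replicate 1 left 918 calls, removing control siRNA replicate 2 left 894, and removing control siRNA replicate 3 left 791. Of the calls 55.7% were higher, and with median scaling 30.7% of 387.

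Called genes were fewest at the dimmest levels. With the genes cut into 4 equal parts by level, dim to bright, 1.01%, 9.25%, 16.8% and 14.9% were past the threshold. Low levels lie near the array background, where fold changes are understated. The plot of change against level shows both features.

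**Figure D1:**
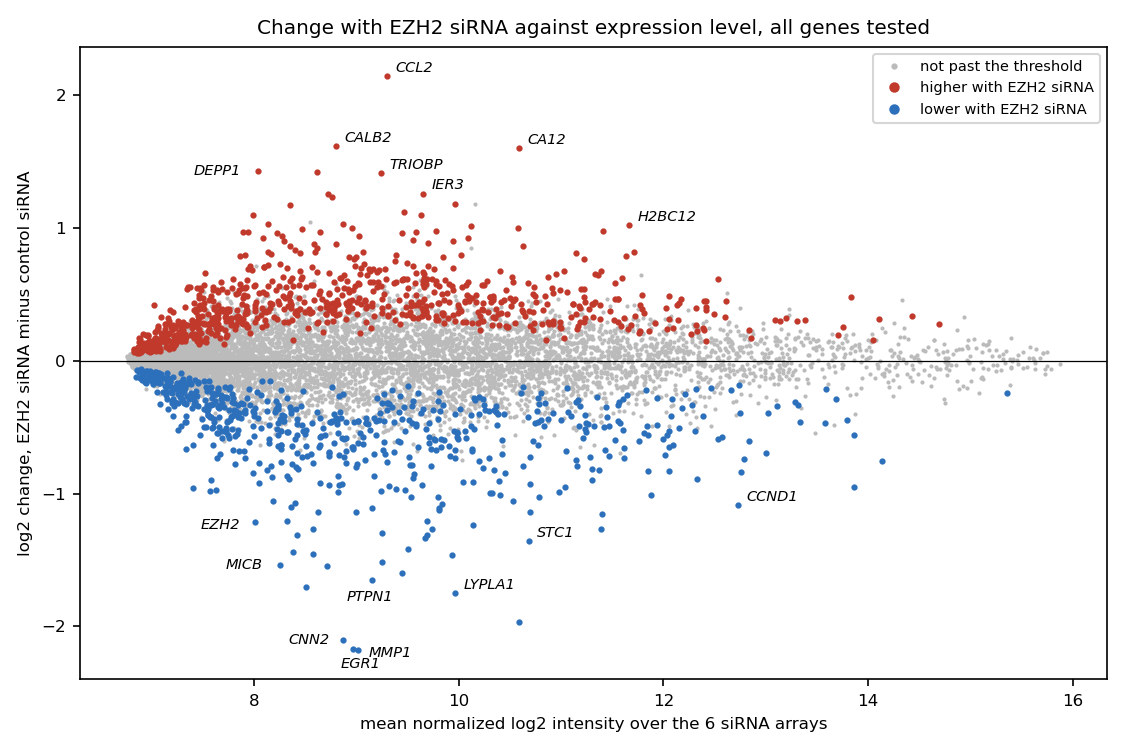
Log2 change with EZH2 siRNA (EZH2 siRNA minus control siRNA, vertical axis) against mean normalized log2 intensity over the 6 siRNA arrays (horizontal axis) for 13528 genes. Red points are the 791 genes past the threshold and higher, blue points the 628 past it and lower, and grey points the rest. Changes are compressed at the dim end, and CCL2 (2.15) and MMP1 (-2.18) mark the top and bottom.

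The strongest rise was in CCL2, the monocyte-attracting chemokine. It was at 10.41, 10.25 and 10.48 with EZH2 siRNA and 7.96, 8.42 and 8.31 with control siRNA, and every EZH2 siRNA array was above every control array. The change of 2.15 (SE 0.123, adjusted p 2.04e-05) is 4.43-fold. CA12, a membrane carbonic anhydrase that acidifies the outside of the cell, was at 11.37, 11.36 and 11.45 with EZH2 siRNA and 9.88, 9.91 and 9.57 with control siRNA, a 3.04-fold rise. ADGRG1, an adhesion G protein-coupled receptor, was at 11.14, 11.08 and 11.02 with EZH2 siRNA and 9.94, 10.35 and 9.94 with control siRNA, a rise of 1.00. DHRS3, a retinaldehyde reductase, was at 9.10, 8.60 and 9.11 with EZH2 siRNA and 7.69, 7.78 and 7.81 with control siRNA, and rose by 1.17. In none of these did the groups overlap.

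The EZH2 siRNA arrays were also higher than the control precursor arrays in CCL2 (2.41), CA12 (2.24), ADGRG1 (1.90), DDIT4 (1.90), DEPP1 (1.58), TRIOBP (1.56), DHRS3 (1.39), CARD19 (0.82), SLC33A2 (0.57) and KRT80 (0.55). Against control siRNA the same genes, in that order, were at 2.15, 1.60, 1.00, 1.02, 1.43, 1.42, 1.17, 1.00, 1.10 and 1.10. DDIT4 is an inhibitor of mTOR signalling, DEPP1 a target of FOXO factors, TRIOBP an actin-binding protein and KRT80 a keratin. A further TRIOBP probe gave 0.05. The 2 comparisons share the EZH2 siRNA arrays, and 28.6% of all genes were past the threshold against the control precursor, 15.1% higher and 13.4% lower.

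Other large rises were not matched against the control precursor. There CALB2, the calcium-binding protein calretinin (1.62 against control siRNA), was at 0.12, the amino acid transporter SLC7A5 (1.18) at 0.23, the phosphatase CTDSP2 (1.13) at 0.16, CMTM4 (1.24) at -0.35 and the small nuclear RNA RN7SK (1.42) at -0.24. None of these values was past the threshold. RN7SK was the noisiest of the 20 largest rises (SE 0.345, adjusted p 0.0303), and its call was lost in 8 of the 15 alternative settings, among them the removal of control siRNA replicate 2, of control siRNA replicate 3, and of each EZH2 siRNA array in turn. IER3, an immediate early survival gene, was at 10.34, 10.08 and 10.42 with EZH2 siRNA and 8.96, 8.97 and 9.14 with control siRNA. That is a rise of 1.26, where the control precursor gave -0.84. TGFBI (1.03), H2BC5 (1.26), H1-2 (1.03) and H2BC12 (1.02) likewise had the opposite sign past the threshold against the control precursor, at -0.82, -0.48, -1.77 and -0.82. Of the 20 largest rises, 10 passed the threshold against the control precursor in the same direction, 5 in the opposite one, and 5 did not pass it.

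The deepest falls were in MMP1, EGR1 and CNN2. The interstitial collagenase MMP1 was at 7.80, 7.85 and 8.15 with EZH2 siRNA and 10.42, 9.84 and 10.07 with control siRNA. It fell to 22.1% of control (17.8% to 27.3%), yet against the control precursor it was at -0.35 and not past the threshold. CNN2, an actin-binding calponin, was at 7.92, 7.84 and 7.69 with EZH2 siRNA and 9.96, 9.94 and 9.86 with control siRNA, a change of -2.10 beside -1.77 against the control precursor. A further, dimmer CNN2 probe gave -0.49. The groups overlapped in neither gene.

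MICB, a stress-induced ligand of the killer cell receptor NKG2D, was at 7.53, 7.54 and 7.39 with EZH2 siRNA and 9.01, 9.09 and 8.97 with control siRNA. The groups did not overlap, and the change of -1.54 had an adjusted p of 2.43e-06. It was the only one of 6 NKG2D ligand genes past the threshold, with its paralogue MICA at 0.16 and ULBP2 at -0.03.

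Many of the other large falls were close in size against both controls. Against control siRNA and against the control precursor, the acyl-protein thioesterase LYPLA1 was at -1.75 and -1.86. PTPN1, a tyrosine phosphatase of insulin receptor signalling, was at -1.65 and -1.95. The kinase HIPK2 was at -1.54 and -1.53, GLOD4 at -1.47 and -1.24, and the mitochondrial ribosome protein MRPL20 at -1.42 and -1.65. The mitochondrial pyrophosphatase PPA2 was at -1.33 and -1.48, NAV3 at -1.31 and -1.30, the ribosome biogenesis factor WDR36 at -1.26 and -1.21, and the replicative helicase subunit MCM3 at -1.30 and -1.22. Smaller values were found against the control precursor for the calcium pump ATP2B4 (-1.46 and -0.99) and KDELR3, which returns proteins to the endoplasmic reticulum (-1.44 and -0.88). Further probes gave -0.12 for ATP2B4, -0.46 for KDELR3 and 0.02 for PPA2, the last a dim probe detected on 3 of 12 arrays. Of the 20 largest falls, 16 passed the threshold against the control precursor in the same direction, 2 in the opposite one, and 2 did not pass it. The opposite signs were those of the secreted glycoproteins STC1 (-1.36 and 0.31) and FSTL1 (-1.31 and 1.11). FSTL1 was at 9.24, 9.23 and 8.64 with EZH2 siRNA and 10.27, 10.42 and 10.34 with control siRNA.

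**Figure D2:**
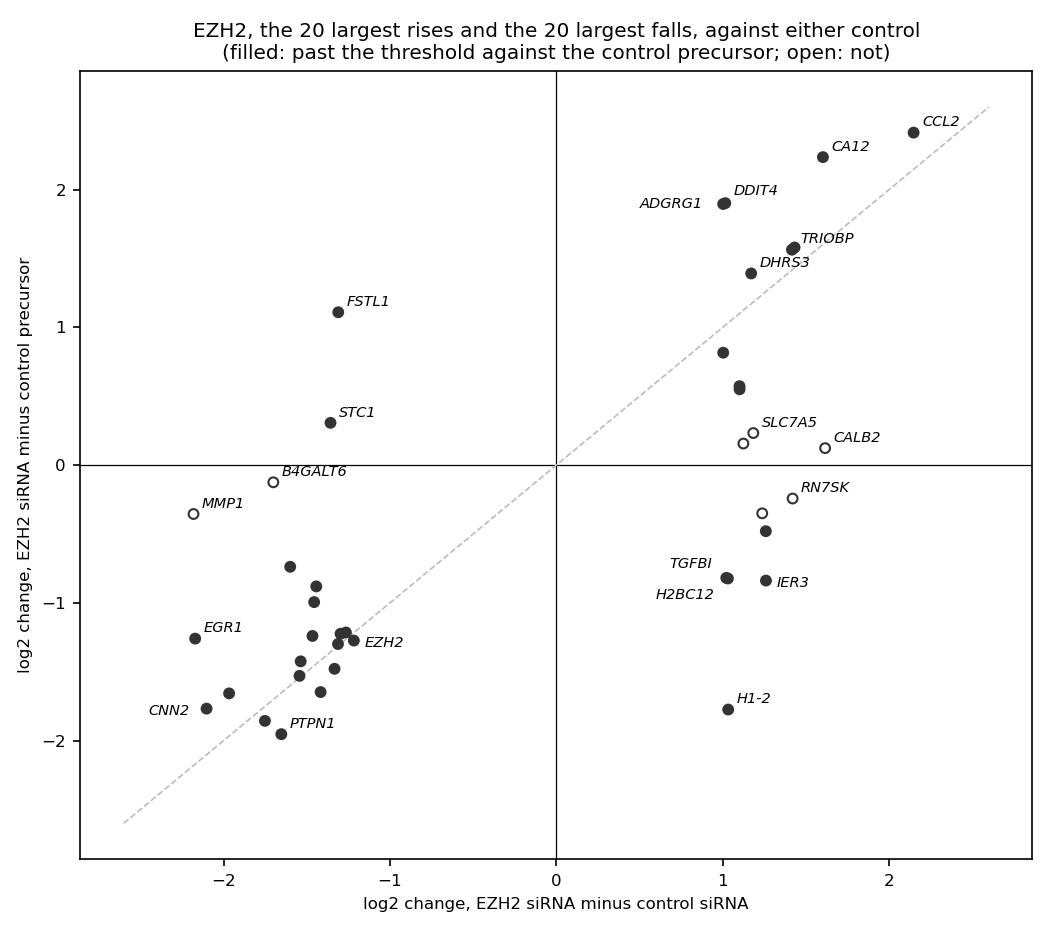
Log2 change of the EZH2 siRNA arrays against the control siRNA (horizontal axis) and against the control precursor (vertical axis) for EZH2 and the 20 largest rises and 20 largest falls against control siRNA. Filled points are past the threshold against the control precursor and the dashed line marks equal changes. The axes share the EZH2 siRNA arrays. CCL2, DHRS3 and EZH2 lie near the line, while H1-2, IER3 and FSTL1 lie in the quadrants of opposite sign.

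**Figure D3:**
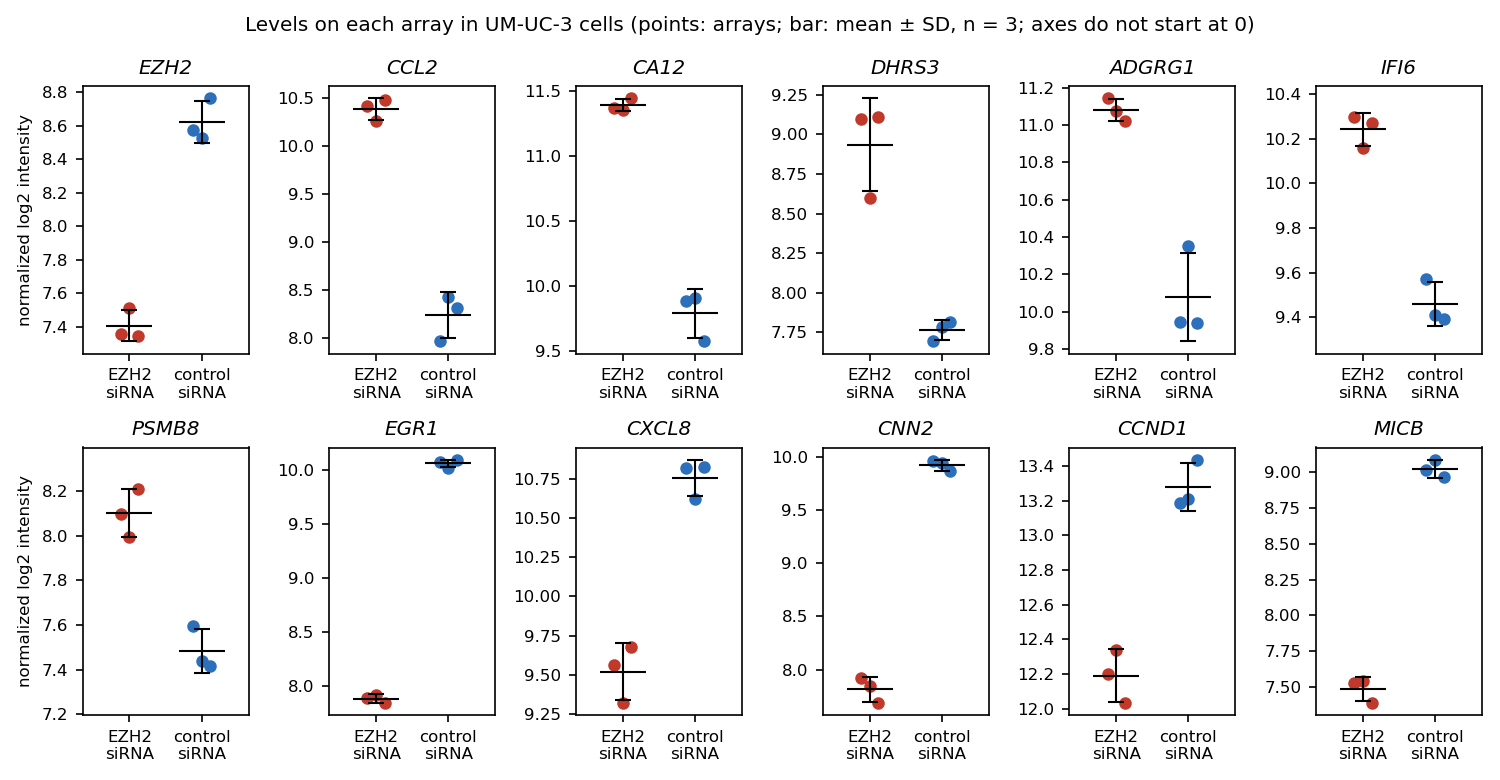
Normalized log2 intensity on each array (points) with mean and SD (bars, n = 3) for 12 genes, EZH2 siRNA in red on the left and control siRNA in blue on the right of each panel. Axes differ between panels and do not start at 0. In all 12 genes the groups do not overlap, as in 1417 of the 1419 genes past the threshold.

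Many interferon response genes were higher with EZH2 siRNA. Interferons act through transcription factors, IRF9 and STAT2 among them, that bind response elements upstream of antiviral genes. Of 49 genes of this response 35 were tested, 15 rose (42.9%), 0 fell and 20 were not past the threshold. The list median was 0.21 beside 0.00 for all genes, and 33 of the 35 had a positive change. IFI6, a mitochondrial antiviral protein, was at 10.30, 10.16 and 10.27 with EZH2 siRNA and 9.57, 9.41 and 9.39 with control siRNA. The groups did not overlap, and the change was 0.78 (adjusted p 0.00275). IFI35 (0.68), the DNA sensor IFI16 (0.60) and IRF9 (0.57) rose as well. IFI44 (0.69), UBE2L6 (0.58), which conjugates the ubiquitin-like protein ISG15, and the membrane proteins IFITM3 (0.47) and IFITM2 (0.43) also rose, and were chosen after their values were seen. ISG15 (0.57, limma adjusted p 0.0719) and STAT2 (0.17) were not past the threshold, and 14 genes of the list, MX1 and IFIT1 among them, did not pass the detection filter. The 13 tested genes that sense foreign RNA gave 0 calls, with 11 positive changes and EIF2AK2, the RNA-activated kinase PKR, at 0.32 (limma adjusted p 0.058).

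Against the control precursor 21 interferon genes were higher and 2 lower, with IFI6 at 1.61, IRF9 at 1.48, IFI16 at 0.94 and IFI35 at 0.86. With median scaling 3 of the 35 rose and 0 fell, with a median of 0.14. Leaving out 1 array at a time gave 9 to 15 rises and 0 falls.

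Genes of antigen presentation on class I molecules were partly higher. Of 20 tested, 4 rose and 0 fell (20%), with a median of 0.17. The immunoproteasome subunit PSMB8 was at 8.10, 7.99 and 8.21 with EZH2 siRNA and 7.60, 7.44 and 7.41 with control siRNA, without overlap. Its rise of 0.62 compares with 0.78 from a further probe and 0.79 against the control precursor. The proteasome activator subunits PSME1 (0.39) and PSME2 (0.40) rose, as did the class I light chain B2M (0.38). A further, dimmer PSME1 probe gave 0.04. B2M was at 12.60, 12.46 and 12.75 with EZH2 siRNA and 12.27, 12.24 and 12.15 with control siRNA. With the control precursor as the control, PSME1 (0.41) and PSME2 (0.43) were past the threshold and B2M (0.17) was not. PSME2 lost its call whichever of the 6 arrays was left out. TAP1, the peptide transporter, was at -0.15 and not past the threshold, and with median scaling PSMB8 was the 1 rise of the list.

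Promoters of these genes were searched for the core of the interferon-stimulated response element, GAAA followed by any 2 bases and GAAA again, on both strands. The window ran from 250 bases before to 50 after each start in RefSeq (GRCh38.p14), and 47 of 55 interferon or antigen presentation genes tested had one (85.5%). The core was present in 10 of 17 that rose (58.8%) and in 15 of 30 that did not (50.0%), beside 243 of all 9457 genes tested with a promoter (2.57%). The lists were drawn up of genes known to respond to interferon or to present antigen. The 250 bases before the start of IFI6, B2M and PSME2 are shown because they carry the core in genes that rose. They lie at chr1:27672193-27672442 (minus strand), chr15:44711267-44711516 (plus strand) and chr14:24146611-24146860 (minus strand), and capitals mark the core. IFI6 holds 3 matches, B2M 2 that share bases, and PSME2 1.
IFI6: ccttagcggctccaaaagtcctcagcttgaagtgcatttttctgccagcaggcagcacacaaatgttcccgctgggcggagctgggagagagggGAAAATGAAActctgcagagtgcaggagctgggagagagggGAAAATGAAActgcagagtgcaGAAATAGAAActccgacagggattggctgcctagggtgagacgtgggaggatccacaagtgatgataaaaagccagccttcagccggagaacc
B2M: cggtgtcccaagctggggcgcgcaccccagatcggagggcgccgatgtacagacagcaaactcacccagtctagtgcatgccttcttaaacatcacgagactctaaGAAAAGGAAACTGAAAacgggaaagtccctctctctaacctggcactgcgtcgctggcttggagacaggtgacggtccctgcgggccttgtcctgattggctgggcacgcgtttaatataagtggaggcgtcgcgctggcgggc
PSME2: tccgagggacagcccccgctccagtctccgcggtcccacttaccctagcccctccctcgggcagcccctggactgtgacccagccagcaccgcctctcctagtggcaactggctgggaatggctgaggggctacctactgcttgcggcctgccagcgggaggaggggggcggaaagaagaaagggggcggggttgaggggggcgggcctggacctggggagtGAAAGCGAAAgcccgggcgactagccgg

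EGR1, the immediate early zinc finger factor induced by growth factor signalling, had one of the largest falls. It was at 7.89, 7.92 and 7.85 with EZH2 siRNA and 10.07, 10.02 and 10.08 with control siRNA, with little spread in either group. The change of -2.17 (SE 0.0597, adjusted p 2.92e-07) compares with -1.26 against the control precursor. Other members of the early response moved less. Of 18 FOS, JUN, EGR and related genes tested, 3 fell and 1 rose (22.2%). The median was -0.04 (-0.42 against the control precursor, where 2 were higher and 12 lower). FOS, a partner in the AP-1 dimer, fell by 0.31 on the log2 scale. It lay near the array background, at 7.07 with EZH2 siRNA and 7.39 with control siRNA, where changes are understated. The matricellular gene CCN1 fell by 0.58, while JUN (-0.03), FOSL1 (-0.25) and CCN2 (-0.04) were not past the threshold. EGR1 alone remained past it with median scaling.

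SRF, the serum response factor that activates many early genes through CArG boxes, rose by 0.44 against control siRNA and was at -0.29 against the control precursor. One form of the CArG box (CC, then ATATTA, then GG) was searched in the same promoter windows and both strands. It was present in 5 of 9457 (0.0529%), of which EGR1 and the histone gene H2BC21 (0.16) were past the threshold. The 250 bases before the EGR1 start (chr5:138465229-138465478, plus strand) are shown for that match, in capitals, which begins 105 bases before the start. The same bases also hold CC, then ATATAT, then GG, another form, left in lower case. The 5 promoters are those with the first form, so they do not count CArG boxes in general. In all 18 motifs were searched, and since 69.9% of the genes tested had a promoter in the table, no shares over all risen or fallen genes are given.
EGR1: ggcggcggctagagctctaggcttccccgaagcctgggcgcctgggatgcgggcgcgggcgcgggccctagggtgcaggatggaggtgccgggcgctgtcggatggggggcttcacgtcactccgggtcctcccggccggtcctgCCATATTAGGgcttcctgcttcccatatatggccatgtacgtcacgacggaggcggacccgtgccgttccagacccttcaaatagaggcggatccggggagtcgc

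Growth factor and MAP kinase genes gave scattered changes. Of 31 receptor tyrosine kinases and ligands, 4 fell and 2 rose (19.4%). HBEGF, a ligand of the epidermal growth factor receptor, was at 7.48, 7.57 and 7.68 with EZH2 siRNA and 8.50, 8.34 and 8.40 with control siRNA, and fell by 0.84 on the log2 scale. The receptors EGFR (-0.20) and MET (-0.30) fell slightly, and AXL (0.26) rose. All 3 calls were lost with median scaling, and that of MET in 9 of the 15 alternatives. Set against the control precursor, HBEGF (-1.39) and EGFR (-0.26) were also past the threshold and lower. AXL (-0.40) was past it with the opposite sign, and MET (0.19) was not past it. The list gave 0 rises and 1 fall with median scaling, and 1 to 2 rises and 1 to 4 falls with 1 array left out. Further EGFR probes gave 0.02 and -0.06. Of 19 feedback genes of the MAP kinase pathway 3 rose and 2 fell (26.3%), with the phosphatases DUSP14 at 0.60 and DUSP1 at -0.49, and PHLDA1 at -0.53. Of 26 protein tyrosine phosphatases 3 fell, led by PTPN1, and 0 rose (11.5%, a share near the 10.5% of all genes). Of 11 Krüppel-like factors KLF6 (-0.49) and KLF12 (-0.19) fell and KLF2 and KLF10 (0.24) rose (36.4%). Further probes gave -0.63 for KLF6, -0.01 for KLF12 and 0.05 for KLF10. With the control precursor as the control, DUSP1 (-1.26) and KLF6 (-0.65) were past the threshold and lower. KLF10 (-0.26) was past it with the opposite sign, and DUSP14 (0.01), PHLDA1 (-0.02) and KLF12 (-0.02) were not past it. With median scaling the MAP kinase feedback list gave 1 rise and 1 fall, the phosphatases 0 rises and 1 fall, and the Krüppel-like factors 0 rises and 1 fall.

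Chemokines other than CCL2 were lower where they changed. Of 23 chemokine and cytokine genes tested, 5 fell and 2 rose (30.4%), with a median of 0.01. Median scaling gave 1 rise and 3 falls with a median of -0.01, and leaving out any 1 array gave 1 rise and 2 to 3 falls. The neutrophil-attracting chemokine CXCL8 was at 9.56, 9.32 and 9.67 with EZH2 siRNA and 10.82, 10.62 and 10.82 with control siRNA, without overlap, and its change was -1.24. CXCL1 was at 8.51, 8.34 and 8.68 with EZH2 siRNA and 9.51, 9.21 and 9.12 with control siRNA (-0.77). CXCL8 (-1.93) and CXCL1 (-1.97) were lower still against the control precursor. CXCL2 (-0.52) and LIF (-0.24) fell and IL11 (0.33) rose, and these 3 were chosen after their values were seen. Of 23 NF-kB subunit and feedback genes 2 rose and 1 fell, where median scaling gave 1 rise and 1 fall and the control precursor 0 higher and 11 lower. The inhibitor NFKBIA was at 0.36 against control siRNA and -2.02 against the control precursor, and the subunit RELB at -0.70 and -1.07.

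TGF-beta, BMP and ID genes gave 8 rises and 3 falls among 26 (42.3%), with a median of 0.05. ID1, an inhibitor of basic helix-loop-helix factors that BMP signals induce, was at 10.34, 10.29 and 10.55 with EZH2 siRNA and 9.51, 9.58 and 9.38 with control siRNA. It rose by 0.91, and ID3 (0.82) and ID2 (0.66), chosen after their values were seen, rose with it. The inhibitory SMAD7 (0.32) and the secreted protein TGFBI (1.03) also rose. The receptor TGFBR2, likewise chosen after its values were seen, fell by 0.91 on the log2 scale. Against the control precursor ID1 (-0.38), ID2 (-0.63) and TGFBI (-0.82) were past the threshold with the opposite sign, ID3 (-0.10) and SMAD7 (0.06) were not past it, and TGFBR2 was at -1.08. Median scaling gave 4 rises and 2 falls. Of 28 WNT pathway genes 1 fell, SFRP1, and 0 rose (3.57%).

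Among actin regulators more genes fell than rose. Of 42 tested, 9 fell and 2 rose (26.2%), with a median of -0.10, and 11 of the 42 had a positive change. Tropomyosin TPM2 was at 11.58, 11.57 and 11.78 with EZH2 siRNA and 12.46, 12.57 and 12.40 with control siRNA, a change of -0.83 (-0.67 with a further probe). EZR, the membrane-cytoskeleton linker ezrin, was at 11.17, 11.24 and 10.86 with EZH2 siRNA and 11.70, 11.88 and 11.72 with control siRNA (-0.67). LIMA1 (-0.87), moesin (MSN, -0.56), caldesmon (CALD1, -0.51) and alpha-actinin ACTN1 (-0.42), all chosen after their values were seen, fell too. A further CALD1 probe gave -0.04. Smooth muscle actin ACTA2 rose by 0.28. Median scaling gave 4 falls and 1 rise with a median of -0.15, and the control precursor 12 lower and 10 higher with a median of -0.02.

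Lists of matrix, protease and adhesion genes had larger shares past the threshold than the 10.5% of all genes, from few calls each. Of 17 metalloproteinase and inhibitor genes 4 fell and 1 rose (29.4%). After MMP1 these were ADAMTS1 (-0.58), MMP9 (-0.13, limma adjusted p 0.00605) and ADAM9 (-0.92), the last chosen after its values were seen. MMP9 lay near the array background and was undetected on all EZH2 siRNA arrays, and its call was lost with median scaling. Of 8 plasminogen system genes 3 fell and 0 rose (37.5%), with the urokinase inhibitor SERPINB2 at -0.89 (-0.32 against the control precursor). Of 30 collagens, laminins and integrins 3 rose and 2 fell (16.7%). The integrin subunit ITGA2 was at 8.82, 8.97 and 9.29 with EZH2 siRNA and 10.11, 9.95 and 10.09 with control siRNA. Its change was -1.02 against control siRNA and 0.71 against the control precursor. The hemidesmosome collagen COL17A1 rose by 0.55 (0.96), and a further, dimmer probe of it gave 0.09. The tight junction gene CLDN1 fell by 0.97 on the log2 scale (-1.19 against the control precursor) and the gap junction gene GJA1 rose by 0.51 (0.79). They were the 1 fall and 1 rise of 9 epithelial junction genes tested (22.2%). The mesenchymal factor TWIST1 rose by 0.16, and mesenchymal genes gave 3 rises and 0 falls of 15 (20%). Median scaling left 2 falls and 0 rises among the metalloproteinase genes, 2 falls and 1 rise among the collagens, laminins and integrins, and 1 rise and 0 falls among the mesenchymal genes.

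Enzymes of glycan synthesis included both large falls and small rises. Of 31 glycosaminoglycan and glycolipid synthesis genes 7 fell and 4 rose (35.5%), with a median of -0.03. DSE, which epimerizes chondroitin to dermatan sulfate, was at 8.81, 8.75 and 8.40 with EZH2 siRNA and 10.18, 10.26 and 10.31 with control siRNA, a change of -1.60 (-0.74 against the control precursor). B4GALT6, a lactosylceramide synthase, was at 7.74, 7.78 and 7.45 with EZH2 siRNA and 9.23, 9.44 and 9.40 with control siRNA. Its change of -1.70 compares with -0.12 against the control precursor. The chondroitin synthase CHSY1 (0.38) and the xylosyltransferase XYLT2 (0.44) rose. With median scaling 0 genes of the list rose and 2 fell, and leaving out 1 array at a time gave 1 to 4 rises and 3 falls. The control precursor gave 13 genes of the list higher and 3 lower.

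**Figure D4:**
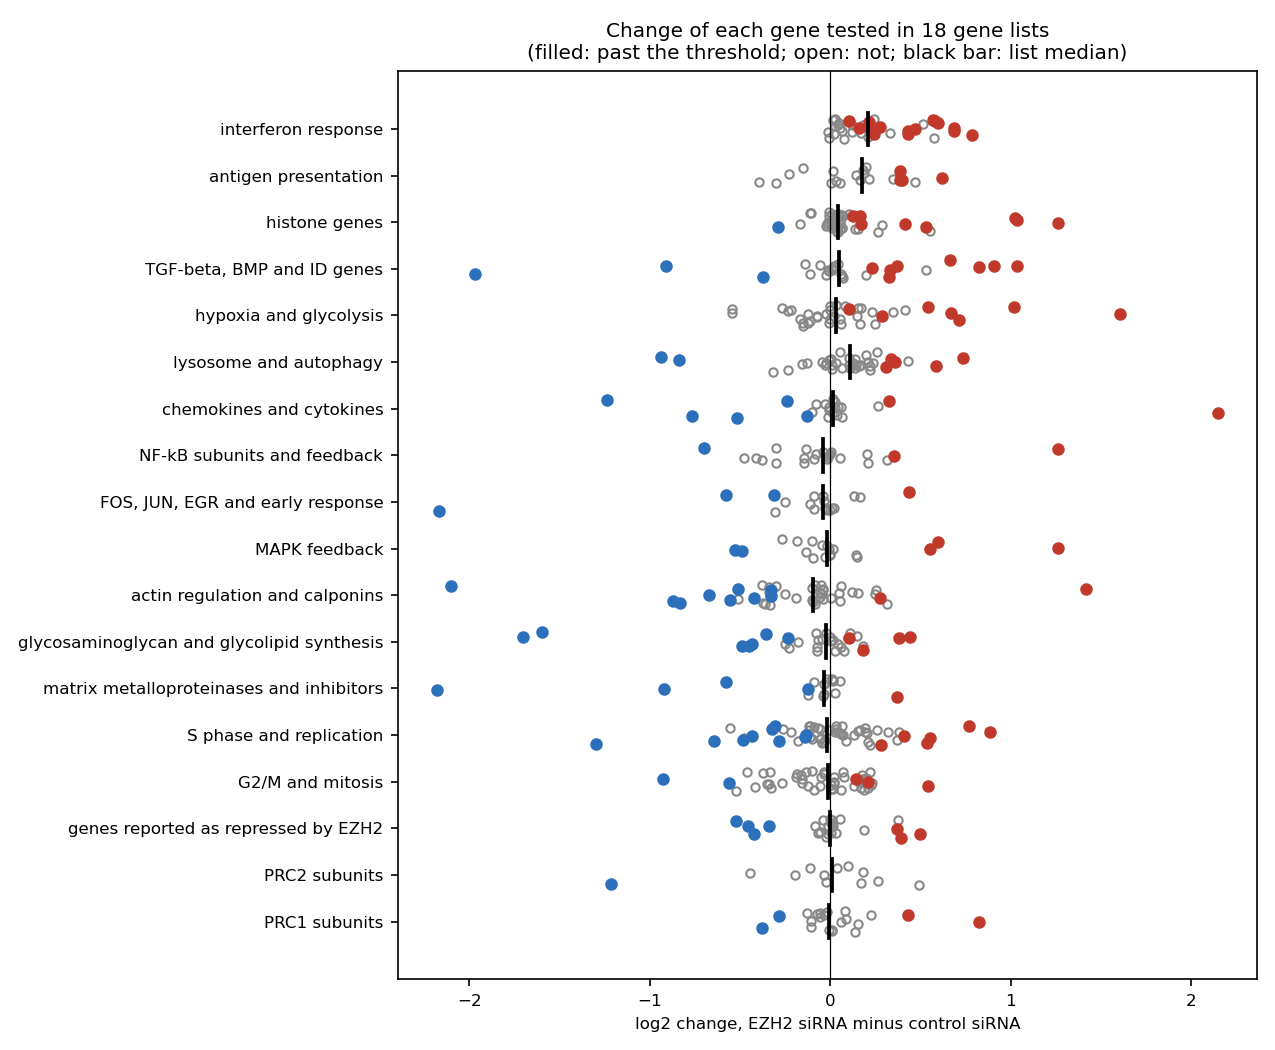
Log2 change (EZH2 siRNA minus control siRNA) of each gene tested in 18 of the 47 gene lists. Filled red points rose and filled blue points fell past the threshold, open points did not pass it, and the black bar is the list median. The median bars stand at 0.21 for the interferon, 0.17 for the antigen presentation and -0.10 for the actin list.

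CCND1, the cyclin D1 that drives entry into the cell cycle, was at 12.20, 12.34 and 12.04 with EZH2 siRNA and 13.19, 13.21 and 13.44 with control siRNA. The groups did not overlap, and the change of -1.09 (adjusted p 0.000306) compares with -1.12 against the control precursor. The inhibitor CDKN2C was at 8.59, 8.32 and 8.75 with EZH2 siRNA and 7.64, 7.63 and 7.60 with control siRNA, a rise of 0.93 (1.09 against the control precursor). A further CDKN2C probe gave 0.34. The p53 target ZMAT3 rose by 0.61 (1.29). Cyclin D3 (CCND3, 0.59) rose and the pocket proteins RBL1 (-0.40) and RBL2 (-0.45) fell, and these 3 were chosen after their values were seen. In all 4 of 32 genes of this list rose and 3 fell (21.9%), with a median of 0.01, and with median scaling 1 rose and 3 fell.

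Replication and S phase genes numbered 56 tested, with 9 falls and 6 rises (26.8%) and a median of -0.02. Median scaling gave 4 falls and 2 rises with a median of -0.08, and leaving out 1 array at a time gave 4 to 7 falls and 4 to 6 rises. MCM3, a subunit of the replicative helicase, was at 8.56, 8.61 and 8.63 with EZH2 siRNA and 9.79, 9.92 and 9.99 with control siRNA. MCM6 (-0.32), MCM4 (-0.28) and MCM5 (-0.48) of the same helicase gave smaller measured falls, the last 2 chosen after their values were seen. MCM6 lay near the array background, at 6.92 with EZH2 siRNA and 7.24 with control siRNA. Its fall may be understated there and its size cannot be set against that of MCM3. The polymerase delta subunit POLD3 was at -0.64, and at 0.69 against the control precursor. The factor E2F2 was at 10.04, 10.21 and 10.17 with EZH2 siRNA and 9.13, 9.37 and 9.27 with control siRNA, a rise of 0.88 (0.44). E2F1 (0.54), the licensing factor CDT1 (0.55) and the reductase subunit RRM2 (0.77) rose too and were chosen after their values were seen. Of 48 G2/M and mitosis genes 3 rose and 2 fell (10.4%), a share near the 10.5% of all genes. The phosphatase CDC25B was at 0.54 and the cytokinesis factor ECT2 at -0.93, a call lost whichever of the 6 arrays was left out, while MKI67 (0.13), CCNB1 (0.20) and CDK1 (0.02) were not past the threshold. For the G2/M list, leaving out 1 array at a time gave 1 to 2 rises and 0 to 1 falls, and median scaling 0 rises and 1 fall. The authors' normalized table gave 1 rise and 6 falls. Against the control precursor 18 genes of the G2/M list were higher and 1 lower, with a median of 0.13.

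Survival genes of the BCL2 family gave 2 rises and 2 falls of 20 (20%). The inhibitor of apoptosis BCL2L1 (0.60) and the effector BAK1 (0.44) rose, and MCL1 (-0.41) and BCL2 (-0.19) fell. Set against the control precursor, BCL2L1 (0.42) and MCL1 (-0.48) were past the threshold in the same direction. BCL2 (0.13) was past it in the opposite one, and BAK1 (0.01) was not past it. MCL1 lost its call in 8 of the 15 alternatives, and BCL2L1 and BCL2 in 3 each. Leaving out 1 array at a time gave 1 to 2 rises and 0 to 2 falls in the list.

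Histone genes gave 8 rises and 1 fall of 52 (17.3%), with a median of 0.04. H2BC12 was at 12.16, 12.20 and 12.17 with EZH2 siRNA and 11.12, 11.18 and 11.17 with control siRNA, the tightest of the 20 largest rises (SE 0.0508). In the comparison with the control precursor 3 histone genes were higher and 19 lower. Median scaling gave 3 rises and 0 falls, and leaving out 1 array at a time gave 3 to 4 rises. Many histone genes are close copies of each other, so a probe may pick up several.

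Metabolic and stress genes rose in a few lists. Of 39 hypoxia and glycolysis genes 7 rose and 0 fell (17.9%), with a median of 0.03. Besides CA12 and DDIT4 these included the stress gene NDRG1 (0.71) and the phosphofructokinase PFKM (0.67), which were at 0.60 and 0.87 against the control precursor. Of 37 lysosome and autophagy genes 5 rose and 2 fell (18.9%), with a median of 0.11. The proton pump subunits ATP6V0D1 (0.74) and ATP6V1A (0.59) rose, while the cathepsin CTSB (-0.84) and the cholesterol exporter NPC1 (-0.94) fell. With the control precursor as the control, ATP6V1A (0.65) and CTSB (-0.33) were past the threshold in the same direction. There ATP6V0D1 (-0.28) and NPC1 (0.09) were not past it. ATP6V0D1, ATP6V1A and NPC1 each lost their call in 2 of the 15 alternatives. CTSB was at 9.95, 10.01 and 10.14 with EZH2 siRNA and 10.80, 10.87 and 10.94 with control siRNA. Of 34 genes of the unfolded protein and integrated stress response 3 fell and 2 rose (14.7%), with the chaperone cofactor DNAJB9 at 0.81 and the factor CEBPB at -0.61. Of 18 amino acid transporters SLC7A1 (-0.76) and SLC1A3 (-0.57) fell and SLC7A5 and SLC6A6 (0.08) rose (22.2%). Of these, SLC6A6 lost its call in 9 of the 15 alternatives and SLC1A3 in 6, and median scaling left 1 rise and 1 fall. Of 33 cholesterol and fatty acid genes the sterol enzymes MSMO1 (0.68) and HMGCS1 (0.29) rose and the desaturase FADS1 (-0.40) fell (9.09%, a share near that of all genes), and with median scaling none of the list was past the threshold. With the control precursor 15 of them were higher and 0 lower. With median scaling 2 hypoxia genes rose, 1 lysosome gene rose and 1 fell, and 1 stress response gene rose and 1 fell.

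Among lists of abundant machinery, of 75 cytosolic ribosomal proteins 4 rose and 1 fell (6.67%), of 71 respiratory chain genes 2 rose and 1 fell (4.23%), and of 35 proteasome genes 2 rose and 2 fell (11.4%), beside 10.5% of all genes. With median scaling 1 proteasome gene fell and 0 rose, and the other two lists gave 0 calls. RPS23 (-0.59) and the complex I subunit NDUFA3 (-0.59) were the falls of the first pair of lists. Of 17 housekeeping genes 1 was past the threshold, B2M, of 4 metallothioneins MT1G rose by 0.63 (-0.37 against the control precursor), and of 14 small RNA pathway genes TNRC6B rose by 0.28, a call lost in 9 of the 15 alternatives. No urothelial, endothelial, fibroblast, neuronal or erythroid marker was past the threshold. The medians of the chromatin modifier, HOX, WNT, epithelial, amino acid transporter, cholesterol, cyclin and p53, BCL2, proteasome and housekeeping lists were small and positive and turned negative with median scaling.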

How the data were processed

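Values were the probe intensities (average signal, a linear scale) and detection p-values that the authors deposited in 1 raw table of 12 Illumina bead arrays, exported from BeadStudio per the submitters' processing notes (version not given in the sources used here). The deposited normalized table held quantile-normalized intensities of the same arrays and served as an alternative. Raw intensities were background-corrected with neqc (limma 3.58.1, R 4.3.3) using the detection p-values, an offset of 16, quantile normalization and log2. Probes detected on 3 or more arrays were kept (17844, of which 3127 had no gene name), with the brightest probe per gene, giving 13528 genes. A linear model of 4 groups with empirical Bayes variances gave two-sided p-values, adjusted by Benjamini-Hochberg. On simulated data with 13528 genes, 70 of 100 genes changed by 0.5 log2 and 96 of 100 changed by 1 were called, with 15 false calls. The simulated noise was independent between genes, without array, chip or normalization effects. It therefore does not measure the rate of false calls on the real arrays. With 3 arrays per group, the number of arrays limits the precision.

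Named genes were EZH2, the 20 largest rises and 20 largest falls, and up to 4 called members of each of 47 lists with the smallest p (145 genes). Other genes past the threshold are marked as chosen afterwards, save H2BC21, named for its promoter match. Genes given as not past the threshold, undetected or not tested fell outside this rule and are not marked. Some genes are not reported here. The members and lists were chosen with earlier results of these data known. Promoters came from RefSeq, 300 bases per gene, and 18 motifs were searched. The 15 alternatives changed scaling, background, filter, probe choice, arrays, weights and replicate block.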

Additional observations from a re-analysis of the deposited data

How the results depend on the processing

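The fall of EZH2 kept its direction and stayed past the threshold under all 15 alternatives. The 1419 genes called against control siRNA became 387 with median scaling, 2689 with array weights and 664 with the replicate number as a block. Leaving out 1 array gave 791 to 1139, the lowest when control siRNA replicate 3 was left out, with 918 for EZH2 siRNA replicate 1 and 894 for control siRNA replicate 2. Against the control precursor median scaling gave 1996 genes, of which 66.9% were higher (53% with quantile normalization), and leaving out 1 array gave 3034 to 3747. The cause was not tested, beyond the smaller number of arrays in the last set. Of 145 named genes 0 reversed, and 58 kept both sign and call under all 15 alternatives. Median scaling took 70 of the 145 below the threshold and the replicate block 61. Replicate numbers did not pair the arrays. Deviations of same-numbered EZH2 siRNA and control siRNA arrays correlated at -0.13, 0.37 and -0.04, and not every array correlated best with its own number. Dim probes near background limit the size of change that can be measured.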
